A study of Mus musculus with 6 samples.

Results

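Genes of the lysosome were examined in bladder tumor organoids of the mouse, tumor cells grown as small multicellular bodies in culture. The 36 genes were chosen by name for their role: 6 membrane proteins, 8 proteases or protective proteins, 6 glycosidases, 5 other soluble proteins, 7 subunits or partners of the V-ATPase, 3 transcription factors and Gpnmb. All 36 were found among the 51912 gene IDs of the deposited table, and 33 had a mean of at least 1 TPM over the 6 libraries and were tested, of 9287 genes tested in all. Atp6v0c, Tfeb and Mitf lay below that level. The comparison was between 3 libraries of organoids exposed to SRT1720, known as an activating compound for the deacetylase SIRT1, and 3 libraries of organoids given vehicle. Both groups came from C57BL/6 mice. The sources used here give no dose, duration or origin of the tumor cells, nor whether each replicate was its own culture or animal. The p-values therefore reflect spread among these 6 libraries, which may not be that of independent cultures or animals. Part of this spread recurred in both groups. Deviations from the group means correlated at 0.79 between SRT1720 3 and Vehicle 3. They correlated at 0.72 between SRT1720 1 and Vehicle 2, and at 0.68 between SRT1720 2 and Vehicle 1. The main p-values take no account of these matches.

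The lysosome is the acidic compartment in which cells break down proteins, glycans and lipids delivered by endocytosis and autophagy. Its hydrolases work in a lumen that the V-ATPase, a rotary proton pump, keeps acidic, and its membrane proteins shield the cell from the hydrolases, export the products and carry signalling complexes such as mTORC1. The transcription factors TFEB, TFE3 and MITF bind an element called CLEAR, built around the letters CACGTG, in the promoters of many lysosomal genes, and mTORC1 holds TFEB in the cytoplasm when nutrients are plentiful.

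The CACGTG letters were searched on both strands in RefSeq promoter windows on GRCm38.p6, each running from 250 bases before to 50 bases after a gene's start. A window was given for 31 of the 36 genes. CACGTG was present for 9 of these 31 genes (29.0%), namely Lamp1, Mcoln1, Ctsa, Ctsd, Ctsl, Gla, Glb1, Atp6v0d1 and Atp6v1a, against 2187 of 27025 genes with a window (8.09%). The longer forms contain the shorter ones, so their counts overlap. TCACGTG was found for 8 of 31 genes (25.8%, against 4.29% of all genes), GTCACGTG for 7 (22.6%, against 2.55%) and TCACGTGA for 6 (19.4%, against 1.12%). These matches describe the letters of the windows only, and binding was not measured.

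Windows of 5 of these genes are shown as examples: Ctsd and Glb1 because their libraries did not overlap between the groups, and Lamp1, Mcoln1 and Ctsa for windows with more than 1 match. Libraries of Psap, Lamp2, Scarb2, Ctsc and Npc1 did not overlap either. The windows of Psap, Lamp2, Scarb2 and Ctsc held no match, and Npc1 had no window. A link between the letters and the difference between groups was not tested. They lie at chr8:13158911-13159210 (plus strand) for Lamp1, chr8:3500269-3500568 (plus strand) for Mcoln1, chr2:164833523-164833822 (plus strand) for Ctsa, chr7:142387778-142388077 (minus strand) for Ctsd and chr9:114400828-114401127 (plus strand) for Glb1. Each runs 5′ to 3′ on the gene's strand, with the matches in capitals. For Ctsa a second window, from another annotated start, held no match and is not shown.
Lamp1: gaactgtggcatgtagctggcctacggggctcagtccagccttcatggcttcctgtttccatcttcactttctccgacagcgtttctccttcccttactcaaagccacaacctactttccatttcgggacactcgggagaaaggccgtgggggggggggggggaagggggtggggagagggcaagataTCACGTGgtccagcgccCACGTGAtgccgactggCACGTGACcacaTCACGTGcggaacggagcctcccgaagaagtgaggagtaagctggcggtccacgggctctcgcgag
Mcoln1: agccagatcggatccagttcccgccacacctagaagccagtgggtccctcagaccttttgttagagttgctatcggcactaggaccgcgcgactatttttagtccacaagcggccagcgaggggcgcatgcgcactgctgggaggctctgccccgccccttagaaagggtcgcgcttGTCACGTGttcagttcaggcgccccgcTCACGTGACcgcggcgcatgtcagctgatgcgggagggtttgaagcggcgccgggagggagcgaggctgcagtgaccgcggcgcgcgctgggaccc
Ctsa: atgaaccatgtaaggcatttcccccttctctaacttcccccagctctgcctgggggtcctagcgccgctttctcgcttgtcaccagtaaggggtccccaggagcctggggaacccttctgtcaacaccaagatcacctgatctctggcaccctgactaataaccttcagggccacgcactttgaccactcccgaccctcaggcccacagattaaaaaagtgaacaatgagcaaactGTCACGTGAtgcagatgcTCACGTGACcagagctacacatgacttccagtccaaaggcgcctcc
Ctsd: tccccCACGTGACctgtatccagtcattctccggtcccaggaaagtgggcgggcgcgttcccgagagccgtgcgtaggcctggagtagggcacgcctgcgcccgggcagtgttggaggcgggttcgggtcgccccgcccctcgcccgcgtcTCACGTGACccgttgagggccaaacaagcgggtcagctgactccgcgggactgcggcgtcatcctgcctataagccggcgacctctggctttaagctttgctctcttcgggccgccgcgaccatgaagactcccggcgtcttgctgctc
Glb1: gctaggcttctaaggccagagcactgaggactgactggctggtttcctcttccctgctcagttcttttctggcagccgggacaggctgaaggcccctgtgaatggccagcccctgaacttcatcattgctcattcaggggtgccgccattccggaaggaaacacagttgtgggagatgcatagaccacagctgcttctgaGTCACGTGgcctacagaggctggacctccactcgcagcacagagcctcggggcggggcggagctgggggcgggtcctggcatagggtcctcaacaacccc
Lamp1 held 4 CACGTG runs within its window, and Mcoln1, Ctsa and Ctsd held 2 each, as did Gla, whose window is not shown. Glb1 held 1.

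Libraries within a group were unlike each other. The basal keratin gene Krt5 had 16.4, 616 and 1120.1 TPM in the SRT1720 libraries 1 to 3, against 425, 9.61 and 741 TPM in the Vehicle libraries 1 to 3, so SRT1720 1 and Vehicle 2 stood apart as low in Krt5. SRT1720 3 and Vehicle 3 had low values for chromosome 3 genes, with medians of −0.39 and −0.41 on the log2 scale relative to their group means. Recovered depth was 21042959 to 21886266 reads with SRT1720 and 18286476 to 22885351 reads with vehicle. Epcam and Cdh1, which define epithelium, were at 76.8 to 191 and 19.0 to 47.3 TPM with SRT1720, and at 69.4 to 177 and 14.5 to 56.5 TPM with vehicle. Of 16 epithelial and urothelial markers 11 were tested, with a median log2 fold change of 0.36 and 0 called by limma. Of these 11, 10 were above 0, against 5093 of all 9287 genes tested, with SEs of up to 2.09 (Krt15). That list summed to 589, 1452 and 2173 TPM with SRT1720, against 988, 401 and 1387 TPM with vehicle, overlapping between the groups. The keratin gene Krt8 was at 98.3, 20 and 54.5 TPM with SRT1720 and at 10.8, 50.6 and 43.9 TPM with vehicle, and the uroplakin gene Upk1b at 1.47, 12.1 and 7.11 TPM with SRT1720 and at 2.72, 0.66 and 6.81 TPM with vehicle. Among markers that define urothelium, Upk1a, Upk2 and Upk3a stayed below a mean of 1 TPM and Upk3a was at 0 in all 6 libraries. Lysosomal genes are also high in macrophages, and 3 of 21 leukocyte and macrophage markers reached a mean of 1 TPM (Cd14, Cd68 and Lyz2). That list summed to 2.37 to 28.8 TPM with SRT1720 and to 4.61 to 26.9 TPM with vehicle. Cd3e was at 0 in all 6 libraries, while Lyz2, Adgre1, Tyrobp, C1qa and Laptm5 were above 0 in SRT1720 2 and Vehicle 1 and at 0 in the other 4 libraries. Their part in the results was not tested, and a change in the number of cells of a type and a change in RNA per cell cannot be told apart in bulk RNA.

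By limma's moderated test with Benjamini-Hochberg adjustment over all 9287 genes, 0 of the 33 tested genes were called, against 0 genes overall (0%). Before adjustment, 5 of 33 were lower with SRT1720 at a p under 0.05 (against 4.55% of all genes) and 1 was higher (against 7.86%), out of 1153 genes over the whole table. Voom on recovered reads also called 0 genes, with 1120 at an unadjusted p under 0.05. Log2 fold changes, taken on log2(TPM + 1) as SRT1720 minus Vehicle, were below 0 for 24 of the 33 genes, against 45.2% of all genes tested. The median was −0.11, beside 0.04 for all genes tested. A single library moved this median: it was −0.0026 without SRT1720 3 and −0.22 without SRT1720 1.

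**Figure D1:**
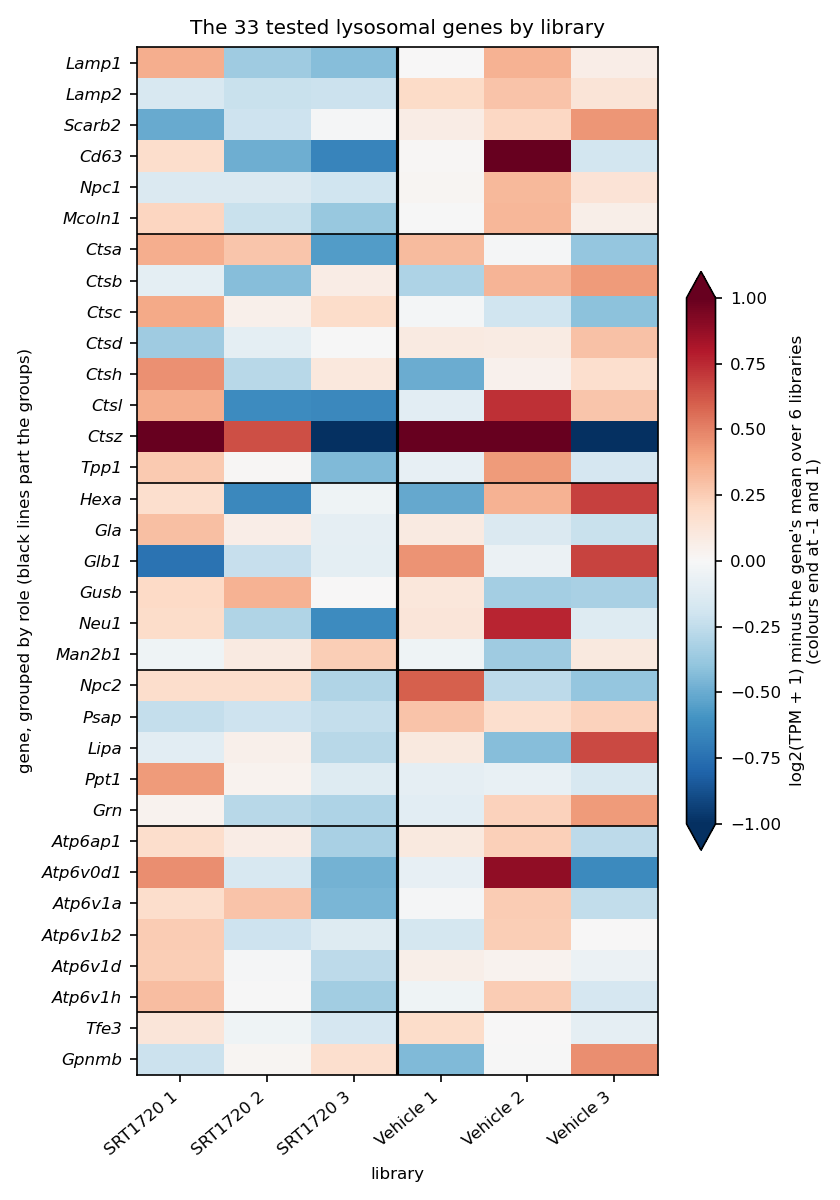
Level of the 33 tested genes in each library, as log2(TPM + 1) minus the gene's mean over the 6 libraries, with SRT1720 libraries left of the black line and Vehicle libraries right of it. Psap and Lamp2 are low in all 3 SRT1720 libraries, while Ctsz is low in SRT1720 3 and Vehicle 3 alone.

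SRT1720 and Vehicle libraries did not overlap for 6 genes that were lower with SRT1720 (Psap, Lamp2, Glb1, Scarb2, Npc1 and Ctsd) and for 1 that was higher (Ctsc). Over all genes tested the shares were 7.75% lower and 12.1% higher. The count of 7 became 13 without SRT1720 1 and 12 without Vehicle 1, settings in which fewer libraries have to separate. Shares of all genes are not given for those settings, so 13 and 12 cannot be compared with 7.75% and 12.1%. For each of these 7 genes the exact two-sided permutation p was 0.1, the smallest that 3 libraries against 3 can give.

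**Figure D2:**
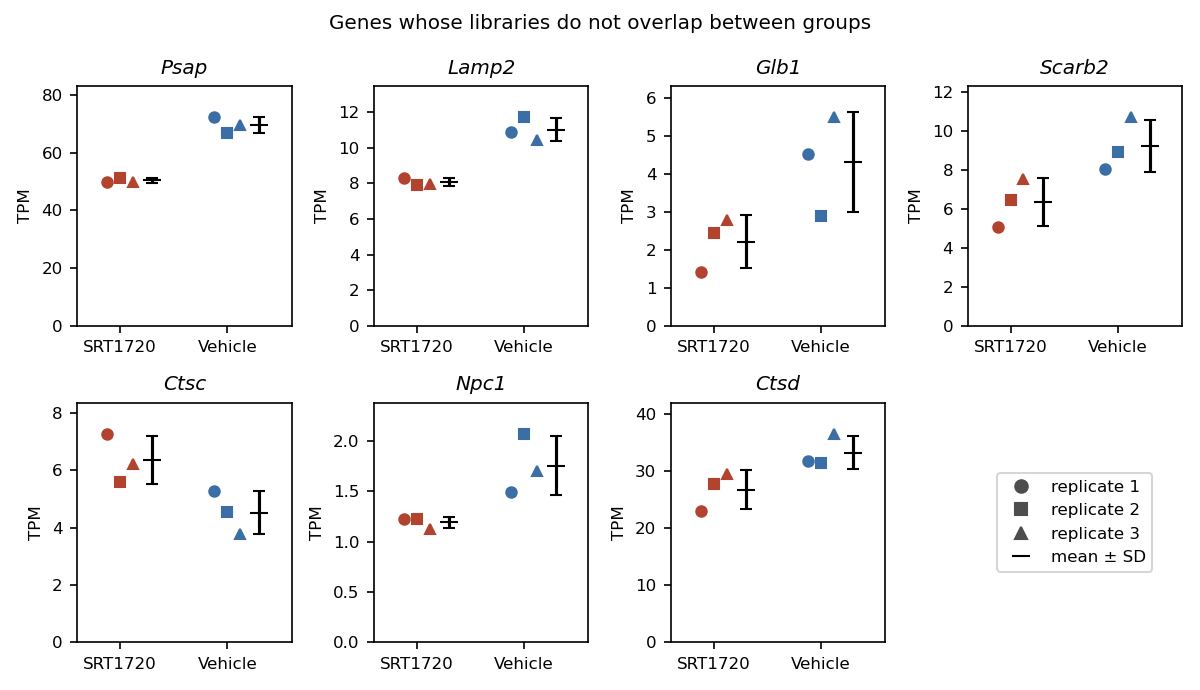
TPM of the 7 genes whose libraries did not overlap, ordered by p, with SRT1720 in red left of Vehicle in blue; marker shapes give the replicate and black bars the mean ± SD of 3 libraries. Psap sits between 50 and 51.3 TPM with SRT1720 and between 66.8 and 72.3 TPM with vehicle, and Ctsc is the gene with the higher SRT1720 values.

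Among the 6 membrane proteins, all had log2 fold changes below 0, with a median of −0.37, and their summed level was 91.3, 61.7 and 59.8 TPM with SRT1720, against 81.6, 112 and 84.5 TPM with vehicle (exact permutation p = 0.3). The sums overlapped because SRT1720 1 was above Vehicle 1 and Vehicle 3. Lamp2, an abundant glycoprotein of the limiting membrane needed for fusion with autophagosomes, was at 8.30, 7.91 and 7.96 TPM with SRT1720 and at 10.9, 11.7 and 10.4 TPM with vehicle. Its log2 fold change was −0.40 (SE 0.14, limma adjusted p = 0.355), a mean ratio of 0.733. Every SRT1720 library lay below every Vehicle library, and the values within a group differed little. Scarb2, the receptor that carries glucocerebrosidase to the lysosome, was at 5.06, 6.45 and 7.51 TPM with SRT1720 and at 8.04, 8.93 and 10.7 TPM with vehicle (log2 fold change −0.48, SE 0.19, limma adjusted p = 0.385). The highest SRT1720 library came close to the lowest Vehicle library.

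Npc1, the membrane protein that exports cholesterol from the lysosome, was low throughout, at 1.22, 1.22 and 1.13 TPM with SRT1720 and at 1.49, 2.07 and 1.70 TPM with vehicle. The log2 fold change of Npc1 was −0.33 (SE 0.13, limma adjusted p = 0.398), on a scale that understates the change of low genes. On the opposite strand Rmc1, at a mean of 1.80 TPM, overlaps Npc1, and reads of both genes cannot be told apart without strand, which is not given in the sources used here. Lamp1, the partner glycoprotein of Lamp2, was at 62.1, 37.3 and 35.5 TPM with SRT1720 and at 48.3, 61.5 and 50.5 TPM with vehicle, so SRT1720 1 held the highest value of all. Mcoln1, a calcium channel of the lysosomal membrane, averaged 1.20 ± 0.483 TPM in SRT1720 libraries, against 1.6 ± 0.330 TPM in Vehicle libraries (SD, n = 3 each), with overlapping libraries.

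Cd63, a tetraspanin of late endosomes and exosomes, was at 12.9, 7.77 and 6.80 TPM with SRT1720 and at 11.4, 26.3 and 9.86 TPM with vehicle, and Vehicle 2 set its mean. The log2 fold change of Cd63 was −0.65, and −0.24 without Vehicle 2. A pseudogene, Cd63-ps, held higher values than the gene in all 6 libraries, at 37.3, 22.1 and 18.5 TPM with SRT1720 and at 31.1, 57.2 and 27.2 TPM with vehicle. Reads of Cd63 may thus have been split with its copy, and its level is uncertain.

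**Figure D3:**
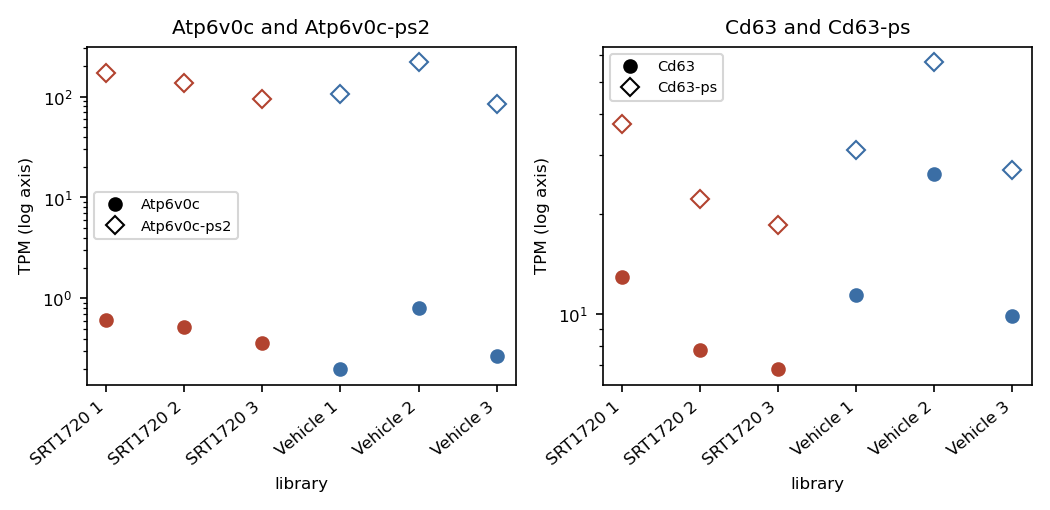
TPM, on log axes, of Atp6v0c beside Atp6v0c-ps2 and of Cd63 beside Cd63-ps in each library, with SRT1720 libraries in red left of Vehicle libraries in blue, filled circles for the gene and open diamonds for the copy. Both copies lie above their genes in all 6 libraries, and Atp6v0c stays below 1 TPM while Atp6v0c-ps2 lies between 83.6 and 218 TPM.

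Proteases did not share a direction. Of 8 tested, 5 had log2 fold changes below 0 and 3 above, with a median of −0.17. Ctsd, the main aspartic protease of the lysosome, was at 23.0, 27.8 and 29.6 TPM with SRT1720 and at 31.8, 31.5 and 36.6 TPM with vehicle. Its libraries did not overlap, and the log2 fold change of −0.31 (SE 0.17, limma adjusted p = 0.516) stood beside a within-group SD of 0.15. Without SRT1720 1 it was −0.20. Ctsc, a dipeptidyl peptidase that activates granule serine proteases in immune cells, was at 7.28, 5.59 and 6.23 TPM with SRT1720 and at 5.27, 4.54 and 3.79 TPM with vehicle, the one gene of the 33 whose SRT1720 libraries all lay above the Vehicle libraries. Its log2 fold change was 0.41 (SE 0.17, limma adjusted p = 0.398). The cysteine protease gene Ctsl was at 28.7, 13.9 and 13.8 TPM with SRT1720 and at 20.5, 37.4 and 27.0 TPM with vehicle, with SRT1720 1 and Vehicle 2, the libraries low in Krt5, highest in their groups. Its log2 fold change of −0.60 (SE 0.35, limma adjusted p = 0.522) was −0.94 without SRT1720 1 and −0.39 without Vehicle 2.

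Ctsb, another cysteine protease, averaged 32.1 ± 5.67 TPM in SRT1720 libraries, against 40.4 ± 10.5 TPM in Vehicle libraries. Ctsh, an aminopeptidase, averaged 2.74 ± 0.944 TPM in SRT1720 libraries, against 2.29 ± 0.746 TPM in Vehicle libraries, and Tpp1, a tripeptidyl peptidase, 3.63 ± 1.10 TPM in SRT1720 libraries, against 4.0 ± 1.16 TPM in Vehicle libraries. Ctsa, the carboxypeptidase that protects β-galactosidase and the sialidase NEU1 in a complex, averaged 3.27 ± 1.34 TPM in SRT1720 libraries, against 3.03 ± 0.966 TPM in Vehicle libraries. Libraries of both groups overlapped for these 4 genes.

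Ctsz, a carboxypeptidase, was nearly absent from 1 library of each group. It had 40.4, 14.3 and 0.176 TPM in the SRT1720 libraries 1 to 3, against 18.5, 45 and 0.310 TPM in the Vehicle libraries 1 to 3, which is 3148, 1162 and 14 recovered reads against 1570, 3056 and 23. The range within a group was thus 229-fold with SRT1720 and 145-fold with vehicle, and the within-group SD of 2.66 on the log2 scale was the largest of the 33 genes, whose median was 0.28. The low libraries were SRT1720 3 and Vehicle 3, which were also low in chromosome 3 genes, whereas Ctsz lies on chromosome 2 from 174427493 to 174439039 (GRCm38). Its log2 fold change of −0.22 (SE 1.68, limma adjusted p = 0.974) became 1.25 without SRT1720 3 and −1.72 without Vehicle 3.

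The next 5 tested genes on each side of Ctsz along chromosome 2, 10 in all, were read next, chosen after the Ctsz values were seen. Both low libraries lay below the other 4 in 2 of the 10, Npepl1 and Atp5e, and the lowest value of either was 1.97 TPM, for Npepl1 in Vehicle 3. Nelfcd, the next tested gene, whose end overlaps that of Ctsz by 10 bases on the opposite strand, was at 4.95, 5.95 and 4.34 TPM with SRT1720 and at 5.07, 2.91 and 4.17 TPM with vehicle. Atp5e, on the other side, was at 16.3, 18.5 and 11.9 TPM with SRT1720 and at 19.5, 23.1 and 11.9 TPM with vehicle.

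**Figure D4:**
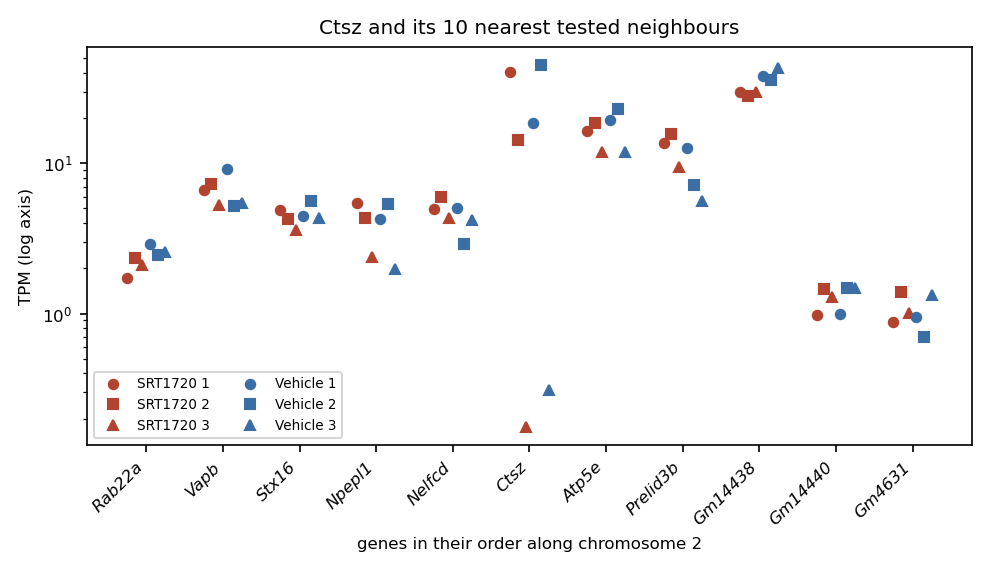
TPM on a log axis of Ctsz and the next 5 tested genes on each side, in their order along chromosome 2. SRT1720 libraries are in red left of Vehicle libraries in blue, with marker shapes for the replicate. Ctsz is at 0.176 TPM in SRT1720 3 and 0.310 TPM in Vehicle 3, while Npepl1 is at 2.38 and 1.97 TPM there and Atp5e at 11.9 TPM in both.

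Glycosidases were split, with 3 of 6 below 0 and 3 above. Glb1, the β-galactosidase measured in senescence staining, was at 1.43, 2.45 and 2.78 TPM with SRT1720 and at 4.53, 2.89 and 5.49 TPM with vehicle. All SRT1720 values were lower, by a mean ratio of 0.516, and SRT1720 3 nearly met Vehicle 2. The log2 fold change of Glb1 was −0.71 (SE 0.25, limma adjusted p = 0.355), the furthest from 0 among the 33 genes. Tmppe, a gene on the same strand at a mean of 0.794 TPM, lies within the span of Glb1, so some of their reads may have been shared. Gusb, which encodes β-glucuronidase, was at 1.70, 2.0 and 1.36 TPM with SRT1720 and at 1.55, 0.865 and 0.885 TPM with vehicle (log2 fold change 0.36, SE 0.18, limma adjusted p = 0.471), where Vehicle 1 fell inside the SRT1720 range.

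Neu1, the lysosomal sialidase, averaged 2.14 ± 0.906 TPM in SRT1720 libraries, against 3.49 ± 1.49 TPM in Vehicle libraries. Hexa, the α subunit of β-hexosaminidase, averaged 3.64 ± 1.27 TPM in SRT1720 libraries, against 5.08 ± 2.32 TPM in Vehicle libraries. Gla, or α-galactosidase A, averaged 2.90 ± 0.532 TPM in SRT1720 libraries, against 2.42 ± 0.403 TPM in Vehicle libraries, and Man2b1, an α-mannosidase, 2.24 ± 0.318 TPM in SRT1720 libraries, against 1.84 ± 0.440 TPM in Vehicle libraries. The libraries of these 4 genes overlapped. As a sum, the glycosidases were at 16.4, 13.7 and 14.4 TPM with SRT1720 and at 16.4, 18.1 and 20.2 TPM with vehicle, so SRT1720 1 and Vehicle 1 were level (exact permutation p = 0.1).

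Psap, the precursor of the saposins that help hydrolases act on sphingolipids, had the smallest p of the 33 genes. It was at 50, 51.3 and 50 TPM with SRT1720 and at 72.3, 66.8 and 69.6 TPM with vehicle, at least 10773 recovered reads in every library. Its within-group SD, 0.04 on the log2 scale, was also the smallest of the 33. The log2 fold change was −0.46 (SE 0.14, limma adjusted p = 0.335), and it lay between −0.51 and −0.43 under all 16 other settings. Without passing the adjusted test in any of them, it stayed at an unadjusted p under 0.05 in 12. Grn, or progranulin, a secreted protein that is processed in the lysosome, was at 8.67, 6.77 and 6.61 TPM with SRT1720 and at 7.77, 10.1 and 11.7 TPM with vehicle (log2 fold change −0.37, SE 0.20, limma adjusted p = 0.499), and Vehicle 1 fell inside the SRT1720 range.

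Ppt1, which removes palmitate from proteins, was at 3.38, 2.33 and 1.97 TPM with SRT1720 and at 2.06, 2.09 and 1.91 TPM with vehicle (log2 fold change 0.22, SE 0.17, limma adjusted p = 0.661), with SRT1720 1 the highest library. The log2 fold change of Ppt1 was 0.06 without SRT1720 1 and 0.34 without SRT1720 3. Lipa, the acid lipase, averaged 3.04 ± 0.452 TPM in SRT1720 libraries, against 3.91 ± 1.83 TPM in Vehicle libraries. Npc2, the soluble protein that hands cholesterol to NPC1, averaged 9.72 ± 1.93 TPM in SRT1720 libraries, against 9.83 ± 4.31 TPM in Vehicle libraries. Psap aside, this group held no gene whose libraries separated, and Psap made up most of its sum of 75.9, 74.8 and 68.7 TPM with SRT1720 against 101, 88.9 and 96.1 TPM with vehicle.

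Subunits of the V-ATPase lay close to 0. The 6 tested had log2 fold changes between −0.11 and 0.00 with a median of −0.04, and adjusted p between 0.943 and 0.997 by limma. Of these 6, 0 had separate libraries, against 7.75% lower and 12.1% higher over all genes tested. So few genes cannot set 0 apart from those shares. Atp6v1a, the catalytic subunit, was at 8.66, 9.41 and 5.24 TPM with SRT1720 and at 7.46, 9.21 and 6.20 TPM with vehicle. Atp6v0d1, a stalk subunit of the membrane sector, was at 11.3, 6.98 and 5.41 TPM with SRT1720 and at 7.42, 15.5 and 4.73 TPM with vehicle. In each group its highest value was in the library low in Krt5 and its lowest in the library low in chromosome 3 genes. For Atp6v0d1 the log2 fold change was −0.11 with an SE of 0.43, so a change of several times that size would lie within the error. Atp6v1b2, of the sector that binds ATP, averaged 5.82 ± 1.21 TPM in SRT1720 libraries, against 6.07 ± 1.05 TPM in Vehicle libraries. Atp6v1d and Atp6v1h belong to the same sector. Atp6v1d averaged 4.68 ± 0.998 TPM in SRT1720 libraries, against 4.72 ± 0.245 TPM in Vehicle libraries, and Atp6v1h 2.26 ± 0.730 TPM in SRT1720 libraries, against 2.29 ± 0.506 TPM in Vehicle libraries. The accessory gene Atp6ap1 averaged 7.07 ± 1.40 TPM in SRT1720 libraries, against 7.35 ± 1.42 TPM in Vehicle libraries.

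Atp6v0c encodes the proteolipid that forms the rotating ring, of which each pump holds many copies. It was at 0.611, 0.518 and 0.358 TPM with SRT1720 and at 0.198, 0.801 and 0.269 TPM with vehicle, too low to be tested. A pseudogene named after it, Atp6v0c-ps2, was at 169.8, 135 and 93.8 TPM with SRT1720 and at 107, 218 and 83.6 TPM with vehicle. The values of Atp6v0c are therefore not taken as its expression. Reads of the gene may have been assigned to the copy, but their sequences were not compared and this was not tested. Taken on the copy, the log2 fold change was 0.04 (SE 0.39, limma adjusted p = 0.977), and its values overlapped between groups.

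**Figure D5:**
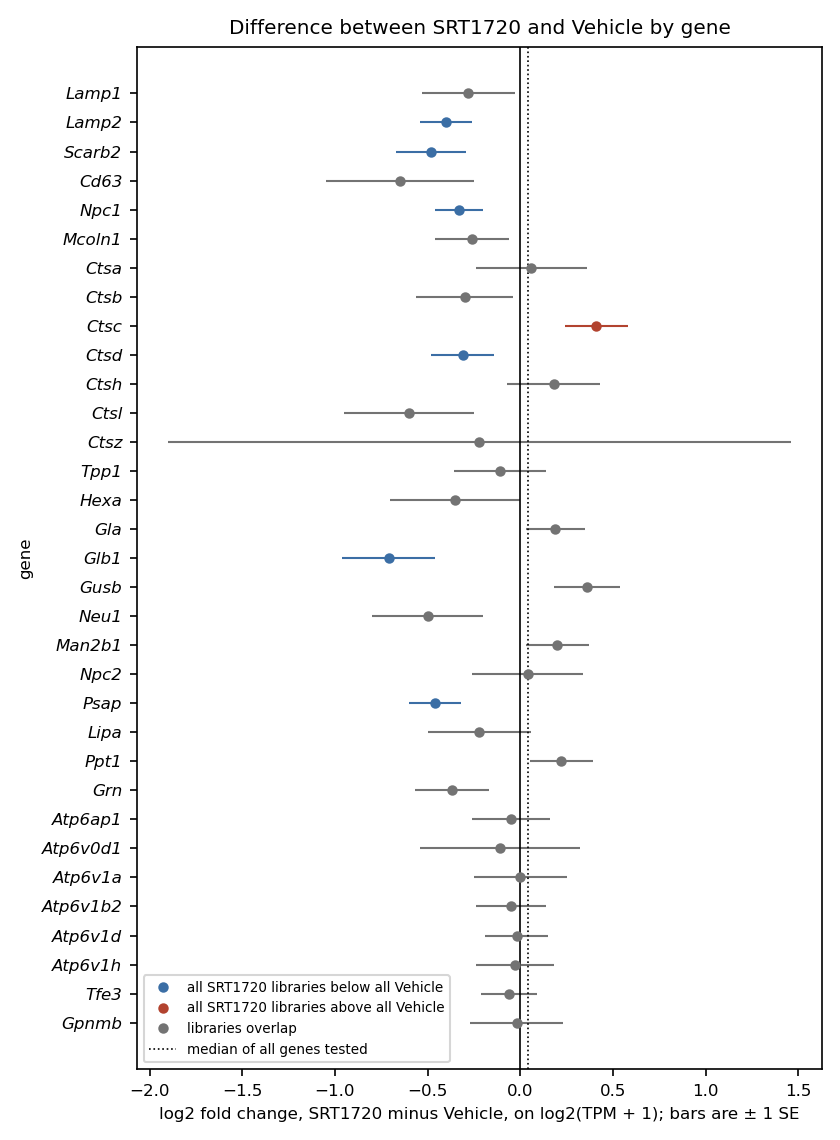
Log2 fold change (SRT1720 minus Vehicle, on log2(TPM + 1)) of each tested gene with bars of ± 1 SE, blue where all SRT1720 libraries lay below all Vehicle libraries, red where all lay above, grey where they overlapped; the dotted line is the median of all genes tested. Membrane proteins lie left of 0, the V-ATPase subunits lie at −0.11 to 0.00, and Ctsz has the widest bar.

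The transcription factors of the CLEAR element were low, with overlapping libraries. Tfeb was at 0.545, 0.696 and 0.662 TPM with SRT1720 and at 0.698, 0.708 and 0.628 TPM with vehicle (exact permutation p = 0.500). Tfe3 was at 1.26, 1.02 and 0.848 TPM with SRT1720 and at 1.36, 1.08 and 0.955 TPM with vehicle (log2 fold change −0.06, SE 0.15, limma adjusted p = 0.908). Mitf, best known from melanocytes and osteoclasts, was at 0.0136, 0.0440 and 0.0434 TPM with SRT1720 and at 0.0764, 0.0136 and 0.144 TPM with vehicle, on 7 to 81 recovered reads. These are mRNA levels, and the location of the proteins in the cell, through which mTORC1 acts on TFEB and TFE3, was not measured. Gpnmb, a membrane glycoprotein that MITF and TFE3 are known to induce, was at 3.14, 3.85 and 4.40 TPM with SRT1720 and at 2.53, 3.79 and 5.63 TPM with vehicle. Its log2 fold change was −0.02 (SE 0.25, limma adjusted p = 0.987), and the Vehicle range enclosed the SRT1720 range.

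Differences between libraries of one group were as large as the treatment difference for many of the 33 genes. In 17 the log2 fold change was smaller in size than the within-group SD, and in 16 it was larger. That SD includes the deviations that recurred between SRT1720 and Vehicle libraries, and no fit of those matches as pairs was run. SRT1720 1 held the highest value of its group in 22 of 33 genes and SRT1720 3 the lowest in 21. Among Vehicle libraries the order was less uneven: Vehicle 2 was highest in 15 and Vehicle 3 lowest in 16. On the scale of the deposited values, the highest mean levels over 6 libraries were 60.0 TPM for Psap, 49.2 TPM for Lamp1, 36.3 TPM for Ctsb, 30.1 TPM for Ctsd and 23.6 TPM for Ctsl. This order depends on the gene lengths behind the values, which exceeded the GENCODE exon length for 31 of the 36 genes (3989 against 2744 bases for Psap).

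Other lysosomal genes were read from 3 lists of hydrolases, membrane proteins and V-ATPase subunits that hold none of the 36. Of 86 genes 49 were tested, 34 had log2 fold changes below 0 and 15 above, and the median was −0.15. The hydrolases had 17 of 22 tested genes below 0 (median −0.22), and their sum was 102, 90.2 and 89.8 TPM with SRT1720 against 125, 119 and 123 TPM with vehicle (exact permutation p = 0.1). The membrane proteins and transporters had 10 of 17 below 0 (median −0.08). Their highest log2 fold change was 1.03 for Tspan1 (SE 0.86, limma adjusted p = 0.674), whose libraries overlapped. By limma over the 3 lists 0 were called, at an unadjusted p under 0.05 there were 4 lower (against 4.55% of all genes) and 0 higher (against 7.86%). Libraries were separate for 6 of the 49, which were lower (against 7.75%), and for 0 that were higher (against 12.1%). Below the level for testing, Arsa, an arylsulfatase, was separate and lower, with a mean ratio of 0.562, while Acp5, an acid phosphatase, and Tpcn2, a cation channel, were separate and higher, with mean ratios of 3.18 and 2.58; these 3 were picked after their values were seen. Lgmn, or legumain, an asparagine-specific protease, was at 6.65, 6.15 and 4.57 TPM with SRT1720 and at 9.84, 9.33 and 11.8 TPM with vehicle (log2 fold change −0.75, SE 0.19, limma adjusted p = 0.289). Slc17a5, which exports sialic acid, was at 1.08, 1.44 and 1.39 TPM with SRT1720 and at 2.11, 2.45 and 2.98 TPM with vehicle (log2 fold change −0.60, SE 0.15, limma adjusted p = 0.289). Cd68, a macrophage membrane protein also in the leukocyte list, was at 1.31, 0.730 and 1.03 TPM with SRT1720 and at 1.45, 1.92 and 3.09 TPM with vehicle. Libraries of these 3 genes did not overlap, and none passed adjustment.

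Among the other V-ATPase subunits 10 of 18 were tested, with a median log2 fold change of −0.08. Of these 10, 0 had separate libraries (against 7.75% lower and 12.1% higher over all genes), again too few genes to set 0 apart. Atp6v0b, of the membrane sector, was at 8.51, 4.64 and 3.95 TPM with SRT1720 and at 6.91, 10.5 and 6.29 TPM with vehicle. Tcirg1, the a3 form of the stator subunit best known from osteoclasts, was at 3.66, 3.18 and 3.36 TPM with SRT1720 and at 3.60, 4.11 and 4.04 TPM with vehicle.

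Of the genes that deliver hydrolases to the lysosome 16 were tested, 10 above 0 and 6 below. The median of their log2 fold changes was 0.07, beside 0.04 for all genes, and limma called 0. Ap3d1, a subunit of the AP-3 adaptor, was at 3.96, 3.69 and 2.98 TPM with SRT1720 and at 1.90, 3.07 and 1.48 TPM with vehicle (log2 fold change 0.55, SE 0.21, limma adjusted p = 0.376). Ap1s1, of the AP-1 adaptor that sorts at the Golgi, was at 17.1, 16.3 and 13.9 TPM with SRT1720 and at 13.1, 12.4 and 10.3 TPM with vehicle (log2 fold change 0.38, SE 0.17, limma adjusted p = 0.437). Of the genes that place mTORC1 on the lysosome or control TFEB and TFE3, 13 of 23 tested lay above 0 and 10 below, the median was 0.04 and limma called 0. Mlst8, a shared subunit of the mTOR complexes, was at 1.91, 2.28 and 1.59 TPM with SRT1720 and at 1.36, 0.861 and 1.11 TPM with vehicle (log2 fold change 0.47, SE 0.16, limma adjusted p = 0.345). Lamtor1, which anchors the Ragulator complex in the lysosomal membrane, was at 11.3, 10.1 and 9.13 TPM with SRT1720 and at 8.37, 6.45 and 5.44 TPM with vehicle (log2 fold change 0.54, SE 0.19, limma adjusted p = 0.355). Both had separate libraries and neither passed adjustment. Of the 23 tested genes of this list, 3 were separate and higher (against 12.1% of all genes). Another 2, Rragd and Rptor, were separate and lower (against 7.75%). Log2 fold changes in the list ran from −0.80 for Fnip1 to 0.54 for Lamtor1.

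On GRCm38 the 7 genes with separate libraries lie on 6 chromosomes. Psap (ENSMUSG00000004207) is on chromosome 10 from 60277627 to 60302597, and Lamp2 (ENSMUSG00000016534) on chromosome X from 38401357 to 38456454. Scarb2 (ENSMUSG00000029426) is on chromosome 5 from 92441314 to 92506833, and Npc1 (ENSMUSG00000024413) on chromosome 18 from 12189692 to 12236400. Glb1 (ENSMUSG00000045594) is on chromosome 9 from 114401076 to 114474898. Ctsd (ENSMUSG00000007891) and Ctsc (ENSMUSG00000030560) share chromosome 7, at 142375911 to 142388038 and 88278085 to 88310888.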

How the data were processed

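A single table of 6 libraries, labelled as TPM, was deposited. The submitters' processing notes name STAR 2.6.0 and GRCm38. The sources used here do not give the counting program, the gene lengths, the use of strand or the rule for multi-mapped reads. The deposited columns summed to 161231 to 171577, below the sum that defines TPM, so values were read as levels scaled by gene length and library. Gene names, positions and exon lengths came from GENCODE M21, matched for 51633 of 51912 IDs. Whole reads were recovered within 0.01 for all 27713 IDs above 0, at the GENCODE exon length for 10991 and at the smallest fitting length for 16722, where reads of low genes can be understated. Libraries held 18286476 to 22885351 such reads.

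Groups came from the sample titles. Genes whose mean over the libraries reached 1 TPM were tested with limma 3.58.1 (R 4.3.3, mean trend) on log2(TPM + 1), with Benjamini-Hochberg adjustment over 9287 genes and a threshold of 0.05, and the script was tested on simulated data. There 42 of 200 genes given a log2 change of 1 were called (21.0%), and 167 of 200 given a change of 2 (83.5%). Log2 fold changes of the 33 genes lay between −0.71 and 0.41, so 0 calls do not show a lack of change. Single values were tested by exact two-sided permutation over 6 libraries. Libraries of a group differed beyond sampling noise (median chi-square per degree of freedom 18.2 to 42.8). This does not show whether they were independent cultures or animals. Each was counted as 1 replicate. Python 3.11.15, pandas 2.3.3 and matplotlib 3.10.9 were used. The genes and lists were chosen with earlier results of these data known. Given in full were the 10 tested genes with the smallest p, the 3 with the highest fold change, the transcription factors and Gpnmb, and the 2 genes of each other list of lysosomal function with the smallest p, of which 1 is not reported here; others in full (Lamp1, Cd63, Ctsz, Atp6v0c, Atp6v0d1, Atp6v1a) were chosen after their values were seen. Alternatives were another pseudocount, filters, scalings, library weights, voom on recovered reads, the replicate block, and libraries left out.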

Additional observations from a re-analysis of the deposited data

How the results depend on the processing

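Under all 16 alternatives 0 genes of the table and 0 of the lysosomal genes tested passed limma's adjusted test. The smallest adjusted p of a lysosomal gene by limma was 0.112. The median log2 fold change of the tested genes kept its sign throughout, though the replicate block could not alter it. It was −0.29 at a mean of at least 5 TPM, where 16 genes were left, and −0.22 to −0.0026 with 1 library left out. Without SRT1720 1 and Vehicle 2, the libraries low in Krt5, it was −0.16, and without SRT1720 3 and Vehicle 3, the libraries low in chromosome 3 genes, −0.06. The count of genes with separate libraries was 7 to 13 with 1 library left out and 14 without SRT1720 1 and Vehicle 2. Fewer libraries have to separate there, and the share of all genes is not given, so no excess can be read from these counts. Of the 33 genes, 14 stayed below 0 and 5 above 0 in all alternatives, and 14 changed sign in at least 1, all without a call. Without a filter 2028 genes of the table had an unadjusted p under 0.05, with library weights 2056, at a mean of at least 5 TPM 498, without SRT1720 3 and Vehicle 3 682 and without SRT1720 2 523, against 1153; the cause was not tested. The 5 lysosomal genes lower at an unadjusted p under 0.05 became 0 without SRT1720 3 and Vehicle 3, and 1 to 4 with 1 library left out. Searching the 250 bases before the start alone gave CACGTG for 8 genes rather than 9.

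With the replicate block 0 genes passed, and 3 rather than 5 were lower at an unadjusted p under 0.05. In this balanced design the block leaves fold changes and separation as they were. The median of −0.11 and the 7 separate genes could therefore not move. Deviations from the group means correlated at 0.79 for the libraries numbered 3, −0.20 for those numbered 1 and −0.26 for those numbered 2. SRT1720 1 correlated best with Vehicle 2 (0.72) and SRT1720 2 with Vehicle 1 (0.68), so the numbers were not taken as pairs. No label pairs libraries across numbers, and no such pairing was fitted. Counting error is small at these depths except for Ctsz in SRT1720 3 and Vehicle 3, Mitf and Atp6v0c, and the spread between libraries limits the tests.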

Other observations

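Some genes of the marker lists, and Tspan1 of the other lysosomal membrane proteins, split the libraries in ways that cross the treatment. They were picked after their values were seen. Tspan1, a tetraspanin of lysosomes and epithelia, was at 10.9, 6.5 and 0.382 TPM with SRT1720 and at 1.46, 3.84 and 0.210 TPM with vehicle (libraries 1 to 3), with the lowest values in the same libraries as Ctsz. Cd14, a receptor for bacterial lipopolysaccharide, was at 26.5, 8.59 and 1.04 TPM with SRT1720 and at 8.97, 14.5 and 1.24 TPM with vehicle, again lowest in SRT1720 3 and Vehicle 3. Lyz2, the lysozyme of macrophages, was at 10.5 TPM in SRT1720 2 and 14.3 TPM in Vehicle 1 and was listed at 0 in the other 4 libraries. Of the markers of osteoclasts and melanocytes, 2 cell types that use MITF, 0 of 9 reached a mean of 1 TPM. Neither did any of 10 fibroblast genes or 10 endothelial and smooth muscle genes. Single libraries were higher. Dcn, of fibroblasts, was at 1.62 TPM in SRT1720 2 and 2.62 TPM in Vehicle 1, the libraries that held Lyz2. Acta2, of smooth muscle, was at 4.26 TPM in Vehicle 3 and at most 0.255 TPM elsewhere. Acp5, of osteoclasts, was at 1.26 TPM in SRT1720 3.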
